A study of Mus musculus with 34 samples.

Results

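The suppressor of cytokine signalling (SOCS) family and the STAT5 pair were followed as 10 genes, Cish, Socs1 to Socs7, Stat5a and Stat5b, of 21887 protein-coding mouse genes. In each of 10 deposited peak lists, a peak was counted for a gene when its centre lay in that gene's body, or closer to it than to any other protein-coding gene and no more than 50 kb away. Of 174035 peaks in all lists, 84 were assigned to these genes. They fell at 44 separate sites, where peaks of different lists that overlapped were joined into 1 site.

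Cytokine and hormone receptors act through Janus kinases, which phosphorylate STAT proteins that then enter the nucleus and switch on genes. Among those genes are Cish, Socs1, Socs2 and Socs3, whose products bind receptors or kinases through an SH2 domain and recruit a ubiquitin ligase through their SOCS box, so that the pathway limits itself. In β-cells STAT5 carries signals of prolactin and growth hormone, and SOCS1 and SOCS3 are known to dampen interferon and IL-1β signalling.

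The cells were Beta-TC6, an insulin-producing mouse β-cell line, all synchronised by a 1 h pulse of 10 µM forskolin, and chromatin immunoprecipitation with sequencing mapped 3 proteins. The NF-κB subunit p65 and the β-cell homeodomain factor PDX1 were mapped in Bmal1-/- cells with IL-1β, Bmal1-/- control cells, WT cells with IL-1β and WT control cells, with 3 samples in each group. BMAL1 is an activator of the circadian clock. The sources used here give neither the dose and time of IL-1β nor whether the knockout line is 1 clone. The corepressor scaffold SIN3A was mapped in WT cells given Pdx1 siRNA and in WT cells given control siRNA, with 2 samples each. Each group had 1 peak list without values per replicate, so no difference below could be set against replicate spread and no test was made. The lists hold no expression values, so neither loss of Bmal1 or Pdx1 nor β-cell identity could be checked. PDX1 peaks do not tell the islet cell types apart. In WT cells with IL-1β and in WT control cells, 7 of 8 β-cell, 4 of 4 α-cell and 2 of 2 δ-cell marker genes had one. The shares over all genes were 41.4% and 41.9%. In knockout cells with IL-1β and in knockout control cells, 5 and 6 of 8 β-cell, 2 and 3 of 4 α-cell and 2 of 2 δ-cell genes had one. There the shares over all genes were 16.1% and 16.5%. Of 2 acinar marker genes 0 had a PDX1 peak in any list. For PDX1 with IL-1β, in either genotype, the sample titles give PDX1 but the antibody field gives p65, and grouping here goes by title.

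Lists of p65 and PDX1 rested on 53.5 to 63.9 M tags and those of SIN3A on 31.0 and 35.0 M. Signal is given as the authors' tag count in the peak window per 10 M sequenced tags, abbreviated here to tags. A tag count of 4.86 stood for about 26 sequenced tags and 74.9 for about 401, and exact Poisson 95% intervals are given for the main peaks, which cover counting error only. Peak windows were 206 to 231 bp wide in most lists but 418 to 479 bp for PDX1 in the knockout and for p65 in knockout control cells. Tag counts of different lists are therefore set side by side as a description, and no difference in binding is read from them.

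Promoter windows of Cish and Socs3 are shown first, as those of the 6 members examined that held a STAT element. Each runs from 250 bases before to 50 bases after a gene start (RefSeq, GRCm38.p6). Capitals mark matches to TTCNNNGAA, the letters of the GAS element that STAT proteins recognise, which reads the same on both strands. The Cish window is chr9:107296409-107296708 on the + strand and the Socs3 window chr11:117969317-117969616 on the - strand.
Cish: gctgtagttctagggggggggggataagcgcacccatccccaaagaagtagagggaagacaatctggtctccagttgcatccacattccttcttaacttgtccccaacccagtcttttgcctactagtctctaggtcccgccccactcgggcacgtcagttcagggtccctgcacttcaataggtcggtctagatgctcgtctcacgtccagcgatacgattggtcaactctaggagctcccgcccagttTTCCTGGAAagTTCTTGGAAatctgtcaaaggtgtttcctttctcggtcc
Socs3: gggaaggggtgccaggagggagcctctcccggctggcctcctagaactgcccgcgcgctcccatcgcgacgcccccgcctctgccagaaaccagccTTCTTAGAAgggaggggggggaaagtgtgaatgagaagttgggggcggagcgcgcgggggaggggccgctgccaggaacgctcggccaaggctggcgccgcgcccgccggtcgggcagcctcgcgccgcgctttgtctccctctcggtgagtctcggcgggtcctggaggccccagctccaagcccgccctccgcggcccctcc
Cish held a pair of matches, TTCCTGGAA and TTCTTGGAA, the first starting at the annotated start itself and the second 11 bases further. Socs3 held TTCTTAGAA, whose first base lay 154 bases before the start. Of 32851 promoter windows of this length 8.30% held at least 1 match. No match was found in the windows of Socs1, Socs4, Stat5a and Stat5b, and those of the other 4 genes were not examined. A form of the κB element, GGG and TTCC with 3 bases of any kind between them, sought on both strands, occurred in none of the windows examined and in 5.56% of all windows. No p65 peak overlapped the Cish window, and the knockout p65 peak that reached into the Socs3 window did not cover its match.

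With IL-1β, p65 was listed at most genes of the family. Without it none of them had a p65 peak, and few of all genes had one. A p65 peak was assigned to 7 of the 10 genes in knockout cells with IL-1β, where 32.8% of all protein-coding genes had one, and to 9 of 10 in WT cells with IL-1β, where 45.9% of all genes had one. In knockout control cells the count was 0, with 0.672% of all genes holding a peak, and in WT control cells it was 0, with 8.99% of all genes. A count of 0 among 10 genes is near both of these shares. The authors' tag limit was 5.65 per 10 M in the knockout control list and 3.72 in the WT control list. The lowest counts listed were 5.33 and 3.16 tags in the same order, so binding weaker than these is absent from the lists. None of the 14 knockout peaks overlapped a knockout control peak, compared with 0.749% of all assigned peaks and 1.35% of genes, and none of the 20 WT peaks overlapped a WT control peak, compared with 4.86% of all assigned peaks and 10.5% of genes. Between the control lists, where 89.1% of the knockout genes and 89.4% of the knockout peaks had a WT counterpart, no member entered. With genes lacking a peak set to 0, the median highest count was 7.06 tags over the 10 genes in knockout and 13.6 tags in WT cells with IL-1β. Over all genes it was 0 in both, since under 50% of them had a peak. Over the genes with a peak it was 11.1 tags in knockout and 15.7 tags in WT cells. These last medians leave out genes without a peak, which the medians of the 10 genes count as 0, so they are not directly comparable.

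**Figure D1:**
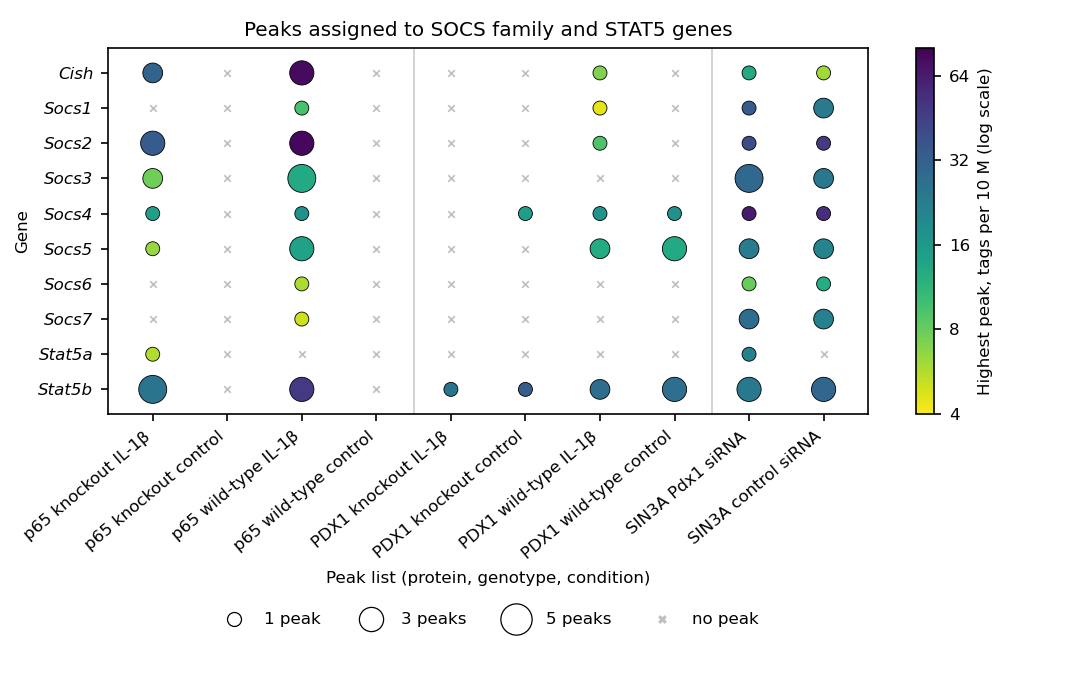
Each row is a gene and each column a peak list. Circle area gives the number of assigned peaks, colour the tag count of the highest one (tags per 10 M, log scale), and crosses mark genes without a peak. The p65 control columns hold crosses only, Cish and Socs2 carry the highest p65 counts (73.6 and 74.9 tags), and Stat5b is the gene with a circle in all 4 PDX1 columns.

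**Figure D2:**
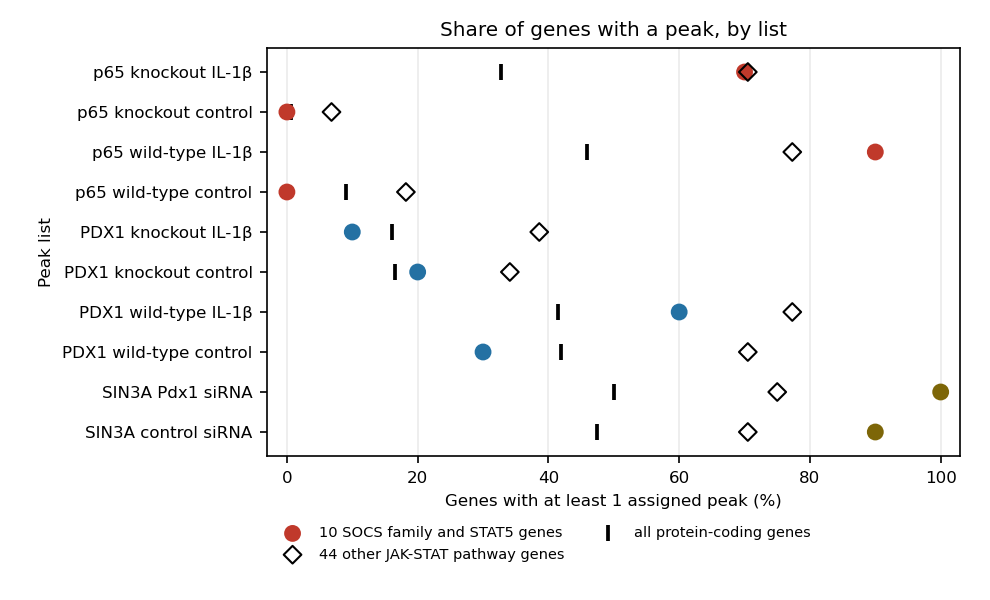
Filled circles give the percent of the 10 SOCS family and STAT5 genes with a peak in each list, coloured by protein. Diamonds give the same for 44 other JAK-STAT pathway genes, and vertical bars for all 21887 protein-coding genes. In the p65 lists with IL-1β the circles lie at 70% and 90%, against bars at 32.8% and 45.9%.

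Cish and Socs2, both feedback inhibitors of growth hormone and cytokine receptors, carried the highest p65 counts. Upstream of Cish, a peak had 31.6 tags (27.1 to 36.6) in knockout cells with IL-1β and 73.6 tags (66.5 to 81.2) in WT cells with IL-1β, with centres 548 and 572 bp before the gene start. The WT peak spans chr9:107295984-107296190 and was 55.34-fold over input, the knockout peak 50.68-fold. Past the far end of Cish, a further peak had 11.5 tags in knockout cells and 20 tags in WT cells with IL-1β, about 3.5 kb outside the gene. The 2 Cish sites thus appear in both genotypes, and a weaker WT peak of 6.54 tags, 10303 bp outside, had no knockout counterpart.

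Socs2 had 3 p65 sites, all of them found in both genotypes. The highest lay 21 kb outside the gene, beyond its upper-coordinate end, with 33.9 tags (29.3 to 39.0) in knockout cells and 74.9 tags (67.8 to 82.6) in WT cells with IL-1β. The WT peak spans chr10:95438687-95438893 and was 112.64-fold over input. Inside the gene, 1 site had 25.4 tags in knockout and 37.7 tags in WT cells with IL-1β. The other, within 500 bp of the upper end, had 13.6 and 21.9 tags in the same order. That last site also carried SIN3A, described further on.

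Stat5b, which encodes a STAT activated by growth hormone, prolactin and interleukins, had a series of p65 peaks toward its upper-coordinate end, from which it is transcribed. At chr11:100841988-100842194, 8490 bp into the gene as counted from a start at position 100850581, p65 had 25.4 tags (21.4 to 29.9) in knockout cells and 48.0 tags (42.3 to 54.2) in WT cells with IL-1β. A site 607 bp (knockout) and 605 bp (WT) upstream of that start had 12 tags in knockout and 26.3 tags in WT cells. The outermost, 2774 and 2800 bp upstream of it, had 13.2 tags in knockout and 28.8 tags in WT cells. RefSeq places the outermost Stat5b end at 100859004, so all of these lie within the annotated gene. All 3 sites were in both lists, with the higher count in the WT list each time. In the order given, their p65 peaks were 16.22, 6.38 and 10.56-fold over input in knockout cells. In WT cells they were 7.22, 7.2 and 28.84-fold, lower than the main Cish and Socs2 peaks.

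**Figure D3:**
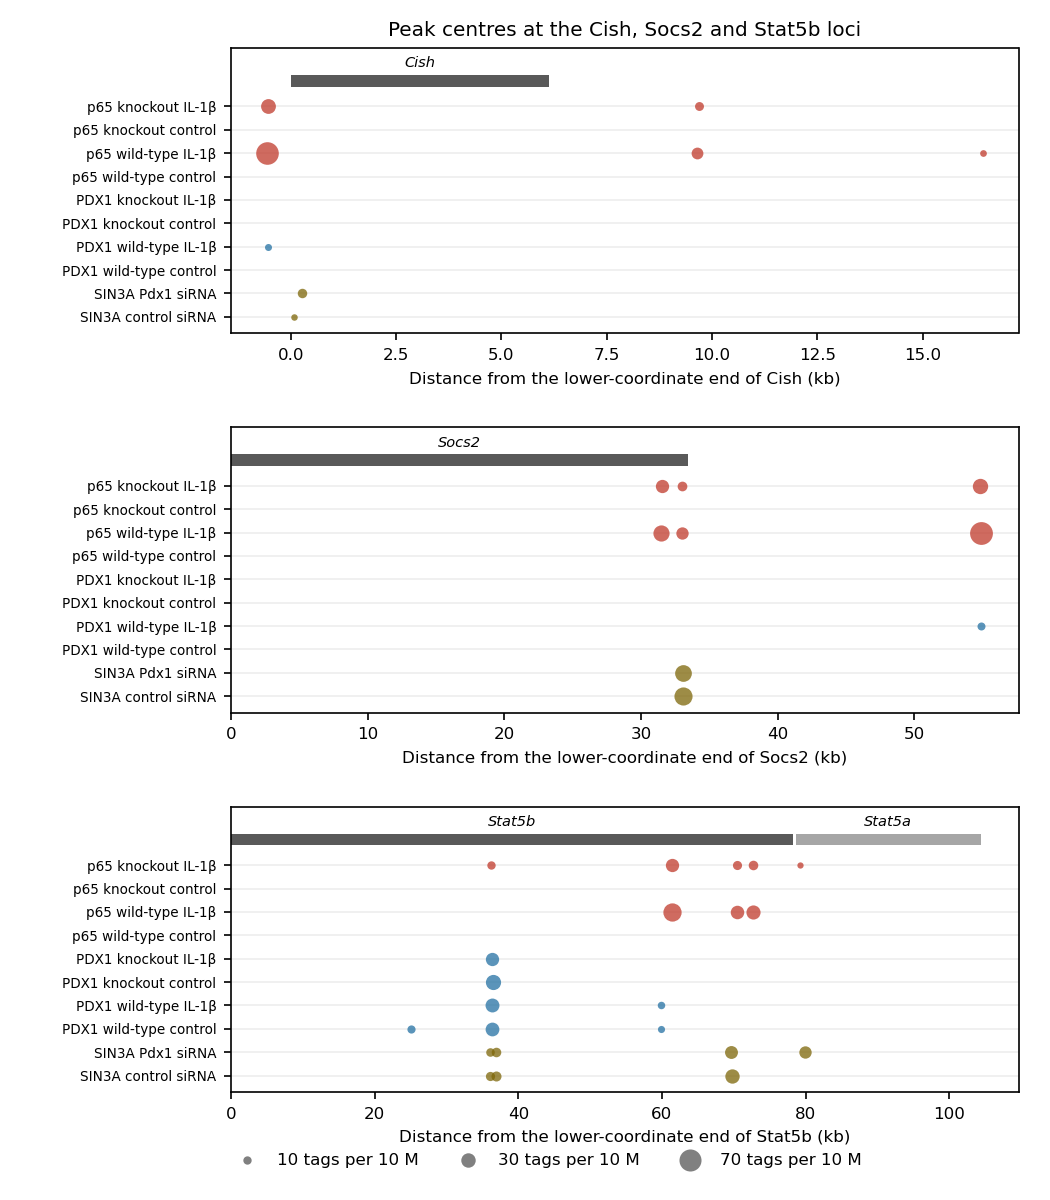
Peak centres at 3 loci are placed by distance in kb from the lower-coordinate end of Cish, Socs2 or Stat5b, with gene bodies as grey bars and 1 row per list. Circle area is proportional to tags per 10 M, with p65 in red, PDX1 in blue and SIN3A in brown. The p65 circles of both genotypes with IL-1β line up, PDX1 circles of 4 lists line up inside Stat5b, and SIN3A sits at 1 end of Cish and of Socs2.

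Socs3 and Socs1, the members best known for restraining IL-6 type and interferon signalling, had weak p65 peaks. Socs3 had 4 p65 peaks in WT cells with IL-1β, of 4.86 to 13.1 tags, and all of them lay outside the gene, between 5835 and 41441 bp away. In knockout cells with IL-1β it had 2, of 7.41 tags 26250 bp outside the gene and of 7.77 tags inside it, and neither overlapped a WT peak. The peak inside the gene shared 30 bases with the Socs3 promoter window shown above and was 4.13-fold over input, near the authors' limit of 4-fold. Socs1 had a single p65 peak, inside the gene and 311 bp from its start, with 9.53 tags (7.09 to 12.5) and 4.09-fold over input in WT cells with IL-1β, and none in the knockout list.

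The members with less defined roles in cytokine signalling, Socs4 to Socs7, had p65 peaks of 5.04 to 17.4 tags. Socs4 had 1 site near its far end with 15.0 tags in knockout cells and 17.4 tags in WT cells with IL-1β, above the medians of genes with a peak given earlier. Socs5 had 1 knockout peak of 6.36 tags and 3 WT peaks of 5.23 to 14.2 tags, with no shared site. Socs6, linked to insulin receptor signalling, had 5.79 tags in WT cells and no knockout peak. Socs7 had 5.04 tags in WT cells and no knockout peak. Stat5a, the close relative and neighbour of Stat5b, was the reverse, with a knockout peak of 5.65 tags (3.86 to 7.97) at chr11:100859861-100860091 and none in the WT list.

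Within each genotype, every p65 site held in common had a higher count than every site of that list alone. Of the 7 genes with a knockout peak under IL-1β, 4 (Cish, Socs2, Socs4 and Stat5b) had one that overlapped a WT peak, where 85.0% of all genes with a knockout peak did so. Of the peaks, 9 of 14 in the knockout list had a WT counterpart, against 78.9% of all assigned knockout peaks, and 9 of 20 in the WT list had a knockout counterpart, against 42.2%. The 9 sites in common ranged from 11.5 to 33.9 tags in knockout cells and from 17.4 to 74.9 tags in WT cells, while the 5 peaks of the knockout list alone had 5.65 to 10.1 tags and the 11 of the WT list alone 4.86 to 14.2 tags. The listed count was the smaller one in the knockout list at all 9 sites, and the share of all tags inside peaks was also smaller there, at 2.33% compared with 5.98% for WT cells with IL-1β. The part of that overall recovery in these counts was not tested. Of the 5 knockout-only peaks, 2 (Socs3 and Stat5b) overlapped SIN3A of the control siRNA group, compared with 15.0% of all such peaks, and 1 (Stat5b) overlapped PDX1 of WT control cells, compared with 31.7%. Of the 11 WT-only peaks, 1 (Socs1) overlapped SIN3A, compared with 5.21%, and 1 (Socs5) overlapped PDX1 of WT control cells, compared with 22.6%.

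**Figure D4:**
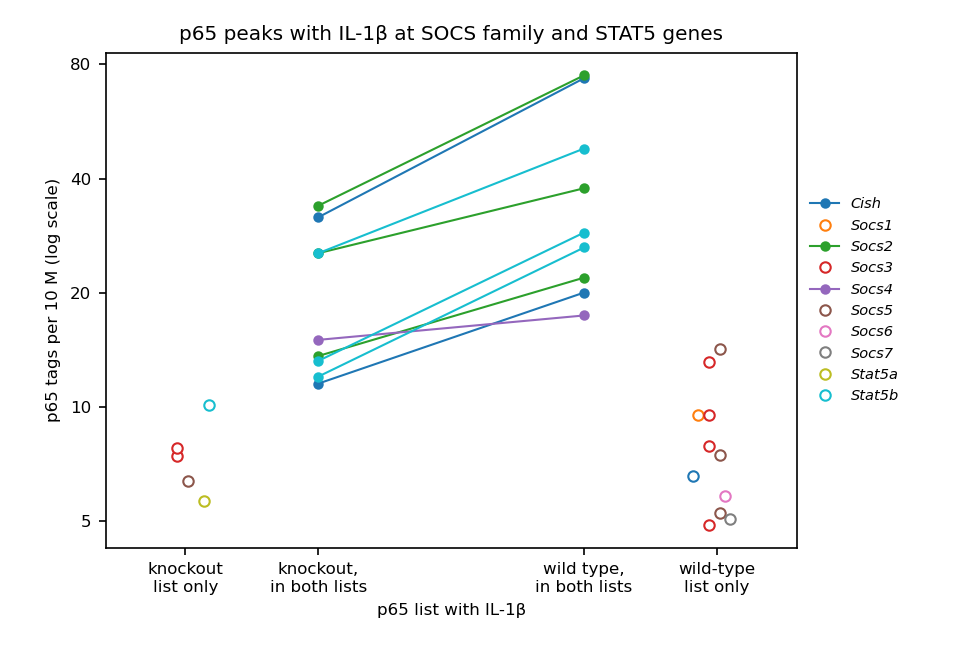
p65 peaks with IL-1β are drawn by tags per 10 M on a log axis. Filled circles joined by a line are the 9 sites in both lists, knockout on the left and WT on the right, and open circles are peaks in 1 list only, shifted slightly sideways by gene. Joined sites reach 33.9 tags in knockout and 74.9 tags in WT cells, and no open circle exceeds 14.2 tags.

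Peaks near a member could belong to a neighbour under the assignment rule. Within 50 kb of a member and nearest to another gene, the highest p65 count was 36.7 tags in knockout cells and 84.8 tags in WT cells with IL-1β, 40 kb from Socs7 and assigned to Mrpl45, a mitochondrial ribosomal protein gene. A site 38 kb from Cish and assigned to Hemk1 had 24.2 tags in knockout and 52.9 tags in WT cells with IL-1β. One 2 kb from Socs4, assigned to the predicted gene Gm35078, had 10.9 tags in knockout and 30.6 tags in WT cells. In WT control cells 3 such p65 peaks were listed, near Cish (4.84 tags) and Socs7 (8.93 and 5.21 tags), so 2 members have a control peak within 50 kb when every gene in reach is counted. Knockout control cells still had none.

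PDX1 was listed at fewer of these genes than p65 with IL-1β. In knockout cells a PDX1 peak was assigned to 1 of 10 genes with IL-1β and to 2 of 10 under control conditions, where 16.1% and 16.5% of all genes had one. In WT cells it was 6 of 10 with IL-1β and 3 of 10 under control conditions, where 41.4% and 41.9% of all genes had one. The 1 knockout gene with IL-1β was Stat5b, and under control conditions Socs4 and Stat5b. In WT control cells the genes were Socs4, Socs5 and Stat5b. These were also the 3 of 6 genes of WT cells with IL-1β that had a peak in common with control (75.6% of all genes), through 4 of 8 peaks (61.6% of all assigned peaks). In knockout cells the 1 gene and 1 peak with IL-1β had a control counterpart, where 67.3% of all genes and 60% of all assigned peaks did. Both genes and both peaks of knockout control cells had a WT control counterpart (92.9% of all genes and 91.6% of all peaks), and so had the 1 gene and 1 peak of knockout cells with IL-1β in WT cells with IL-1β (91.8% and 90.0%). In the other direction 2 of 7 WT control peaks and 1 of 8 WT peaks with IL-1β had a knockout counterpart, where 19.4% and 18.9% of all assigned peaks did.

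A single member site, inside Stat5b, had PDX1 in all 4 PDX1 lists. PDX1 there had 25.4 tags (21.6 to 29.6) in knockout cells with IL-1β, 33.2 tags (28.8 to 38.1) in knockout control cells, 27.9 tags (23.8 to 32.3) in WT cells with IL-1β and 27.3 tags (23.2 to 31.8) in WT control cells. In the same order the peaks were 6.74, 6.68, 6.44 and 9.11-fold over input, so only the WT control peak reached 8-fold. The windows were wider in the knockout lists, at 418 and 472 bp compared with 226 and 207 bp for WT cells. The WT control peak spans chr11:100817023-100817229, about 36 kb from the lower end of the gene. In the same run of overlapping peaks were a p65 peak of knockout cells with IL-1β (10.1 tags, 4.01-fold over input) and SIN3A peaks of both siRNA groups (10.6 tags with Pdx1 siRNA and 12.2 tags with control siRNA). It was the 1 site of 44 at which all 3 proteins were listed, as a chain of overlapping peaks. The p65 peak overlapped the PDX1 peaks of all 4 lists. The SIN3A peak with control siRNA overlapped no PDX1 peak. That with Pdx1 siRNA overlapped only the edge of the wide PDX1 window of knockout cells with IL-1β.

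Socs4 and Socs5 also had PDX1 peaks. Near the far end of Socs4, PDX1 had 15.0 tags in knockout control cells, 16.8 tags in WT cells with IL-1β and 17.8 tags in WT control cells, at 4.38, 7.24 and 5.94-fold over input. The p65 peaks of both genotypes lay at the same Socs4 site, with centres 193 bp to 403 bp from those of PDX1, and overlapped the wide knockout control window but no WT PDX1 peak. Inside Socs5, PDX1 had 12.8 tags in WT cells with IL-1β and 13.1 tags in WT control cells, and a WT control peak of 7.81 tags overlapped the highest p65 peak of that gene. Further Socs5 peaks were listed in 1 condition each, with 8.74 tags in WT cells with IL-1β and 8.97 tags in WT control cells. A second Stat5b site had 8.1 tags in WT cells with IL-1β and 7.31 tags in WT control cells, and another had 9.64 tags in WT control cells only. Socs3, Socs6, Socs7 and Stat5a had no PDX1 peak in any list.

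Cish, Socs1 and Socs2 had a PDX1 peak in WT cells with IL-1β and in none of the other PDX1 lists. Cish had 7.12 tags (5.18 to 9.56) at 4.29-fold over input, near the authors' limit of 4-fold. Socs1 had 4.53 tags (3.01 to 6.55) at 13.64-fold and Socs2 9.23 tags (6.99 to 12) at 55.52-fold. The authors' tag limit for PDX1 was 5.01 in knockout cells with IL-1β and 5.54 in knockout control cells. In WT cells it was 3.56 with IL-1β and 3.32 in control cells. The lowest listed counts in the knockout lists were 4.54 and 5.05 tags, both above the Socs1 count. Their windows were 418 and 472 bp wide, compared with 226 bp for the Socs1 peak, so these counts are not on the same scale. Whether the Socs1 site could have been listed there was not tested. The Cish peak was centred 37 bp from the WT p65 peak of 73.6 tags, and the Socs2 peak 1 bp from the p65 peak of 74.9 tags, the 2 highest p65 peaks of the family. The Socs1 peak overlapped no p65 peak. Of 4 member peaks listed for PDX1 in WT cells with IL-1β and not in WT control cells, 2 thus overlapped p65, compared with 24.5% of all such assigned peaks. In the opposite class, 1 of 3 member peaks listed in WT control cells alone did so, compared with 5.05%. Since the antibody field of these IL-1β samples gives p65, the part of p65-bound DNA in the 2 peaks was not tested. The p65 peaks with the next highest counts, at Stat5b (48.0 tags) and inside Socs2 (37.7 tags), overlapped no PDX1 peak of WT cells with IL-1β. In all, 2 of 9 genes with a p65 peak had one overlapping PDX1 in WT cells with IL-1β (43.9% of all genes), through 2 of 20 peaks (31.3%). In knockout cells with IL-1β it was 1 of 7 genes (26.7% of all genes), through 1 of 14 peaks (19.5%). The p65 and PDX1 lists of a condition shared the same input sample.

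SIN3A marked nearly the whole family, with Pdx1 siRNA and with control siRNA. It had a peak at 10 of 10 genes with Pdx1 siRNA and at 9 of 10 with control siRNA, where 50% and 47.5% of all genes had one. The median highest count was 25.9 tags over the 10 genes with Pdx1 siRNA and 22.6 tags with control siRNA, against 4.29 and 0 tags over all genes. Over the genes with a peak it was 25.7 tags with Pdx1 siRNA and 22.5 tags with control siRNA, close to the medians of the 10 genes. The control siRNA median of the 10 genes counts Stat5a, without a peak, as 0. Of the peaks, 14 of 17 overlapped a control siRNA peak (66.6% of all assigned peaks), and 14 of 15 overlapped a Pdx1 siRNA peak (74.2%). Of the 10 genes with a Pdx1 siRNA peak 9 had one in common with control siRNA, as did 78.5% of all genes with a Pdx1 siRNA peak.

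The highest SIN3A counts were at Socs4 and Socs2. Socs4 had 64.1 tags (55.9 to 73.0) with Pdx1 siRNA and 53.8 tags (45.9 to 62.6) with control siRNA, centred 99 and 158 bp past the gene start. Socs2 had 40.3 tags (33.9 to 47.6) with Pdx1 siRNA and 47.3 tags (40 to 55.6) with control siRNA at its upper end. For both genes the counting intervals of the siRNA groups overlapped. At Socs1 SIN3A had 34.0 tags with Pdx1 siRNA and 23.5 tags with control siRNA 239 and 262 bp upstream of the start, and the control list held a further peak of 20 tags inside the gene. Socs3 had 29.5 tags with Pdx1 siRNA and 24.5 tags with control siRNA near its start. Cish was the weakest under control siRNA, with 12.9 tags (9.39 to 17.2) with Pdx1 siRNA and 6.12 tags (3.68 to 9.56) with control siRNA.

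The bases under SIN3A are shown for Socs1 and Socs4, where the peak reached into the promoter window from opposite sides of the start. Capitals mark the bases covered by the Pdx1 siRNA peak, 116 in Socs1 (chr16:10785487-10785786, - strand) and 55 in Socs4 (chr14:47276670-47276969, + strand).
Socs1: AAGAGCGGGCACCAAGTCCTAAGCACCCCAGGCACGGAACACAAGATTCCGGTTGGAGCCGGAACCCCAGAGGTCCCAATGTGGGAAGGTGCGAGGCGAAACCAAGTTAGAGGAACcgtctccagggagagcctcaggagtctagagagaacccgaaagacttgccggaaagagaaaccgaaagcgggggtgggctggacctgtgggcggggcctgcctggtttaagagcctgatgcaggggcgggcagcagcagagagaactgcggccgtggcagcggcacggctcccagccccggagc
Socs4: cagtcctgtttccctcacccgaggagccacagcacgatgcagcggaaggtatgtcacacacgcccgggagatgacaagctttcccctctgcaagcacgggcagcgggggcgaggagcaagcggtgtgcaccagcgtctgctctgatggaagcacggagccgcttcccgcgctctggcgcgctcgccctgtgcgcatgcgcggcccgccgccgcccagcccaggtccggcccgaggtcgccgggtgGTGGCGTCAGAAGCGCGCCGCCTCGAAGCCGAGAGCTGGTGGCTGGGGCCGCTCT
In Socs1 the covered stretch lies at the far upstream edge, and in Socs4 it runs from just before the start to the end of the window. With control siRNA the covered bases were 101 in Socs1 and 4 in Socs4.

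The remaining SIN3A peaks had 6.29 to 29.6 tags, in lists whose median peak had 21.7 tags with Pdx1 siRNA and 20 tags with control siRNA. Socs7 had 27.7 tags with Pdx1 siRNA and 21.6 tags with control siRNA at its lower end, and Socs6 had 8.01 and 12.6 tags in the same order. At the lower end of Socs5, SIN3A had 23.2 tags with Pdx1 siRNA and 20.9 tags with control siRNA inside the gene, and 16.9 and 17.1 tags in the same order just outside it. A second Socs7 site, beyond the upper end, had 15.2 tags with Pdx1 siRNA and 21.6 tags with control siRNA. Past the far end of Socs3, 1 site had 16 tags with Pdx1 siRNA and 20.6 tags with control siRNA. The Pdx1 siRNA list alone held 2 more Socs3 peaks, of 6.29 and 8.86 tags, and the centre of the one with 8.86 tags lay 9 bp from that of the knockout p65 peak of 7.41 tags. Socs3, Socs5, Socs6 and Socs7 thus each had at least 1 SIN3A site in both lists. Stat5b had 24 tags with Pdx1 siRNA and 29.6 tags with control siRNA next to the start used above, and 13.2 and 14.5 tags in the same order at a site beside the PDX1 peaks. Stat5a was the 1 gene listed with Pdx1 siRNA only, with 22 tags (17.4 to 27.5) and 4.73-fold over input, close to the 4-fold limit.

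The position of peaks relative to gene ends was compared next. Within 1 kb of an end of their gene were 8 of 17 SIN3A peaks with Pdx1 siRNA and 9 of 15 with control siRNA, where 65.5% and 68.0% of all assigned SIN3A peaks were. For p65 with IL-1β it was 4 of 14 peaks in knockout and 3 of 20 in WT cells, where 17.2% and 12.9% of all assigned peaks were. For PDX1 it was 2 of 8 in WT cells with IL-1β and 0 of 7 in WT control cells, where 4.65% and 5.34% were. SIN3A of the control siRNA group overlapped p65 of WT cells with IL-1β at 2 of 9 genes, Socs1 and Socs2 (15.2% of all genes with a p65 peak), through 2 of 20 p65 peaks (6.42% of all). SIN3A of that group overlapped PDX1 of WT control cells at 0 of 9 genes and in 0 of 15 peaks (7.37% of all genes and 6.29% of all SIN3A peaks).

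**Figure D5:**
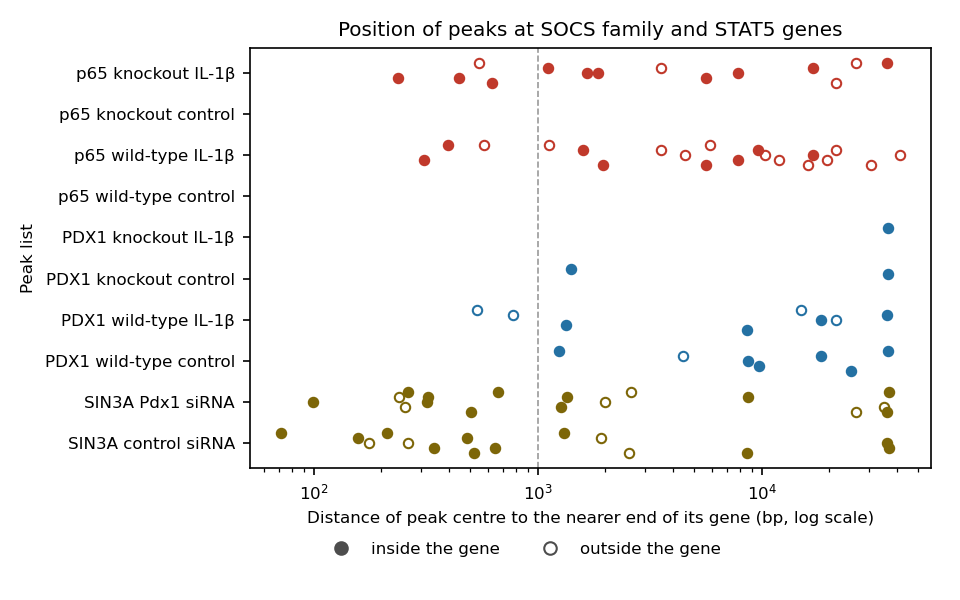
Each point is a peak, placed by the distance in bp (log scale) of its centre to the nearer end of its gene, with 1 row per list, filled if inside the gene and open if outside. The dashed line marks 1 kb. Left of it lie 8 and 9 SIN3A peaks in the lists with Pdx1 and control siRNA, against 4 and 3 p65 peaks with IL-1β in knockout and WT cells.

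Other genes of the JAK-STAT pathway were looked up in the same lists. Of 44 other JAK-STAT pathway genes, 31 had a p65 peak in knockout cells with IL-1β and 34 in WT cells with IL-1β. Over all protein-coding genes the shares were 32.8% and 45.9%. In knockout control cells 3 of the 44 had one, where 0.672% of all genes did, and in WT control cells 8 did, where 8.99% of all genes did. Among the knockout control genes were the kinase gene Jak1 (22 tags) and Ifngr2, an interferon γ receptor chain (9.69 tags). Among those of WT control cells were Jak1 (50 tags), Ifngr2 (16.7 tags) and Ptpn2, a phosphatase that acts on JAKs and STATs (16.6 tags). With IL-1β, Ptpn2 had 68.1 tags in knockout and 176.7 tags in WT cells, and Ifngr2 had 64.8 tags in knockout and 162.1 tags in WT cells. Jak2, the kinase of growth hormone and prolactin receptors, had 64.4 tags in knockout and 153.5 tags in WT cells.

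The other lists covered much of the pathway too. PDX1 had a peak at 17 of the 44 genes in knockout cells with IL-1β and at 15 in knockout control cells, against 16.1% and 16.5% of all genes. In WT cells it had one at 34 with IL-1β and at 31 under control conditions, against 41.4% and 41.9% of all genes. The highest in each of these lists was at Ghr, the growth hormone receptor gene upstream of STAT5, with 45.2 tags in knockout cells with IL-1β, 60.8 tags in knockout control cells, 64.8 tags in WT cells with IL-1β and 50 tags in WT control cells. SIN3A was at 33 of 44 genes with Pdx1 siRNA and 31 with control siRNA, against 50% and 47.5% of all genes. Its highest counts were at Stat3, next to Stat5a on the chromosome (70.1 tags with Pdx1 siRNA and 83.7 tags with control siRNA). Both exceed every SIN3A count of the family.

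For comparison with single genes, the pattern of each member over the 10 lists was its highest tag count per list on the log2(tags + 1) scale. The nearest gene by Euclidean distance was Kansl1 for Socs2 (0.43 log2 units, against a median of 9.88 over all genes), Ttll3 for Cish (0.95, median 9.02) and Gpatch2 for Stat5b (0.67, median 11.9). A list without a peak counted as 0. Each nearest gene is the smallest of the distances to all genes, so lying below the median is no sign of a special likeness. For the other members in at least 3 lists the nearest gene lay between 0.13 log2 units (Ptpa for Socs7) and 0.75 log2 units (Pan3 for Socs4). Stat5a, with a peak in 2 lists, was left out. No member was among the 3 nearest genes of another member.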

How the data were processed

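The 34 samples comprise 28 immunoprecipitations and 6 inputs, grouped by title. Per the file headers, the authors called peaks with HOMER findPeaks in factor style, 1 list per group against 1 input, at a false discovery rate of 0.001, 4-fold over input and over the surrounding 10 kb, and p 0.0001. Whether replicates were pooled is not stated there. Bowtie2, HOMER and mm10 are named in the submitters' processing notes. The deposited tag count is a signal per 10 M tags, the deposited peak score ranks peaks, and the deposited fold is a ratio of immunoprecipitated to input tags. Peaks were assigned to RefSeq gene bodies (GRCm38.p6), a centre inside several genes counting for each, and called shared at 1 bp of overlap. Assignment and overlap code was checked on simulated peaks. Tags were recovered from the list totals for Poisson intervals. The genes, the pathway list and the comparisons were chosen with earlier results of these data known, and named genes follow a rule of highest tag count and pattern distance. Python 3.11.15, numpy 2.4.6, pandas 2.3.3 and scipy 1.17.1 were used. The values of 1 pathway gene are not reported here.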

Additional observations from a re-analysis of the deposited data

How the results depend on the processing

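The counts of genes are small, so single peaks move them. No paired analysis was possible because each group has 1 list without values per replicate, and leaving out a replicate was not run for the same reason. Assignment by nearest gene start was not run, as starts were used for 6 of the 10 genes. The share over all genes is not given for the changed settings, so the counts below have no background to be set against. At 8-fold over input or more, genes with a p65 peak with IL-1β numbered 4 in knockout and 6 in WT cells. For PDX1 they numbered 2 in WT cells with IL-1β, and 0 in knockout cells with IL-1β and in knockout control cells. In both lists at that limit, genes sharing a peak numbered 0 for PDX1 with IL-1β against control in either genotype, 0 for PDX1 in knockout against WT cells with and without IL-1β, 0 for p65 with PDX1 in knockout cells with IL-1β, 1 for p65 with PDX1 in WT cells with IL-1β, and 0 for p65 with SIN3A. Counting every gene within 50 kb gave 2 genes for p65 in WT control cells, and for PDX1 3 in knockout cells with IL-1β, 4 in knockout control cells and 5 in WT control cells. A reciprocal overlap of 50% gave 0 genes for PDX1 in knockout against WT control cells, 0 for p65 with PDX1 in knockout cells with IL-1β and 1 for p65 with SIN3A. Centres within 100 bp gave 1, 0 and 1 in the same order, and centres within 500 bp gave 1 gene for SIN3A with PDX1. Equal list lengths gave 1 gene for p65 with SIN3A, and a gene distance of 10 kb gave 1 for p65 with PDX1 in WT cells. A gene distance of 100 kb left all 23 of these counts within 1.5 times. Between PDX1 of knockout and WT control cells the window widths, 472 and 207 bp, make a reciprocal overlap of 50% impossible, so that count of 0 carries no information. The cause of the other changes was not tested. Numbers of peaks moved too. For p65 with IL-1β the 14 knockout peaks became 7 at 8-fold and 31 with every gene counted, and the 20 WT peaks became 10 at 8-fold, 13 at 10 kb and 38 with every gene counted.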
